A study of Mus musculus with 7 samples.

Results

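The LIF, gp130 and STAT3 pathway was followed here through 10 genes, taken by their symbols from a table of RNA-seq gene counts: the ligands Lif, Il6 and Il11, the receptors Lifr, Osmr and Il6st (which encodes gp130), the kinase Jak1, the transcription factor Stat3 and its target genes Socs3 and Pim1. They are 10 of the 55484 genes listed, and all 10 passed the filter on low counts that left 16580 genes for testing. The libraries came from mouse embryonic fibroblasts (MEFs, 4 libraries) and mouse embryonic stem cells (mESCs, 3 libraries), both of C57/Bl6 background and with no treatment named. The mESC line, its culture medium and any LIF or feeder cells in it, the age of the embryos and the passage of the MEFs are not given in the sources used here. The extraction text attached to these samples speaks of haematopoietic stem cells from young and aged mice rather than of MEFs or mESCs, and the count columns carry a letter O for MEFs and Y for mESCs that no source used here explains. The study's captions give 3 biological replicates for its transcriptional data, whereas 4 MEF libraries were used here. All MEF columns share the same first number in their names, as do all mESC columns, with no explanation given. The sources used here do not say which culture or animal each library came from. The p-values below measure the spread between these samples, which may not come from separate cultures or animals.

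LIF is a secreted cytokine of the interleukin-6 family. It binds the LIF receptor, which pairs with gp130, the signalling chain that nearly all cytokines of the family share. The Janus kinases bound to these chains then phosphorylate STAT3. Phosphorylated STAT3 enters the nucleus and switches on target genes, among them Socs3, whose product blocks the receptor complex in a negative feedback loop. Mouse embryonic stem cells are commonly kept undifferentiated with LIF, and fibroblast feeder layers are a classical source of it, whereas fibroblasts respond to interleukin-6, interleukin-11 and oncostatin M in inflammation and wound repair. Phosphorylation is not read by RNA-seq, so what follows concerns RNA only.

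Total counts ran from 6528643 to 11441278 in the MEF libraries and from 7462710 to 8193825 in the mESC libraries. Libraries are named by cell type and a letter in order of falling total count (MEF a to d, mESC a to c). Levels are counts-per-million values (CPM) over the library total scaled by the trimmed mean of M-values (TMM), and 3 counts, the limit that a count of 0 allows, correspond to 0.288 to 0.477 CPM in MEFs and 0.325 to 0.354 CPM in mESCs. These limits cover counting error only. All 8 pluripotency markers were higher in mESCs (summed level 2924 to 3044 CPM against 31.5 to 34.2 CPM) and all 12 fibroblast markers were higher in MEFs (23999 to 41134 CPM against 177 to 205 CPM), so the markers went with the labelled cell types. Of 6 blood cell markers 1 was called, and their summed level was 2.44 to 8.75 CPM in MEFs and 1.25 to 2.95 CPM in mESCs. The 4 macrophage markers summed to 22.3 to 54.2 CPM in MEFs and 20.8 to 28.3 CPM in mESCs, with 1 called in each direction and Adgre1 at 0 in all mESC libraries. The 4 endothelial markers summed to 9.40 to 13.1 CPM in MEFs and 25.3 to 44.3 CPM in mESCs, with Pecam1 called higher in mESCs. The 4 primitive endoderm markers summed to 26.3 to 35.0 CPM in MEFs and to 12.9 to 37.3 CPM in mESCs. Most of this was Gata6, the 1 of them that had enough counts to be tested, which was not called. Sox17 was at 0 in all MEF libraries and at 1.06 to 5.53 CPM in mESCs, and Gata4 and Sox7 were also higher in every mESC library than in the MEF libraries (means of 1.66 and 2.26 CPM against 0.191 and 0.166 CPM). In such bulk libraries, fewer cells of a type and less RNA per cell cannot be told apart.

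Of the genes that receive the signal and pass it on, Il6st, Osmr, Jak1 and Stat3 held less RNA in mESCs than in MEFs, and Lifr held more. Of the 10 genes, 5 were lower in mESCs (Il6, Osmr, Il6st, Jak1 and Stat3), 3 were higher (Lifr, Socs3 and Pim1) and 2 were not called (Lif and Il11). Genes were called by edgeR's quasi-likelihood test at an adjusted p under 0.05 (Benjamini-Hochberg, over the 16580 genes), by which 25.0% of all genes tested were lower in mESCs, 22.8% were higher and 47.9% were called in either direction. In 8 of the 10 genes (all but Il11 and Pim1) the values of MEF and mESC libraries did not overlap, as in 52.1% of all genes tested. The median log2 fold change of mESCs over MEFs was -1.46 over the 10 genes and 0.04 over all genes tested.

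**Figure D1:**
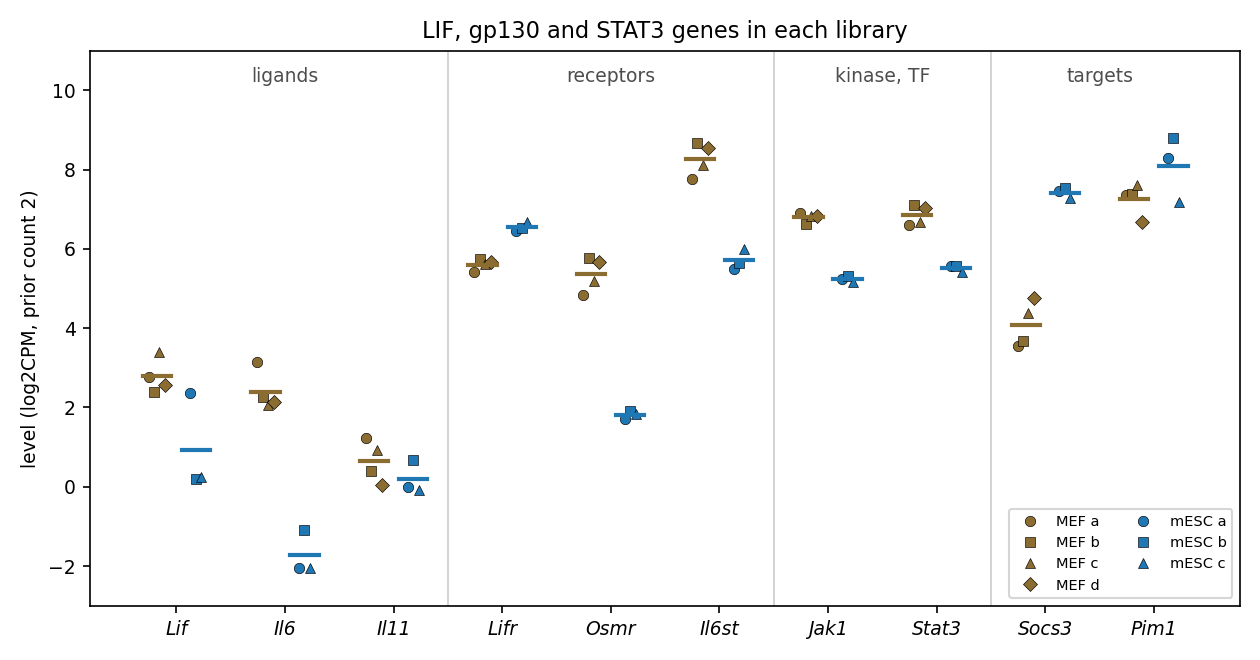
Level of each of the 10 genes in every library, as log2CPM with a prior count of 2 on the vertical axis, with brown symbols for the 4 MEF libraries, blue symbols for the 3 mESC libraries and a bar at the mean of each cell type. Osmr, Il6st, Jak1 and Stat3 lay lower in all mESC libraries than in all MEF libraries, Lifr and Socs3 lay higher, and Pim1 and Il11 overlapped. Heights should be compared within a gene, since the values are not set against gene length.

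Among the ligands, Il6 RNA was found in MEFs and hardly at all in mESCs, Lif RNA was found in both with its higher values in MEFs, and Il11 was low in both. Lif lies on chromosome 11 (4257557-4272514, plus strand; all positions of members are from GENCODE M21 on GRCm38). It was counted at 6.62, 5.03, 10.4 and 5.73 CPM in MEF a to d (69, 42, 68 and 36 counts) and at 4.88, 0.91 and 0.94 CPM in mESC a to c (45, 8 and 8 counts). The groups did not overlap, but mESC a stood just under the lowest MEF library while the other mESC libraries were far below it. The mean was 6.94 ± 2.38 CPM (SD, n = 4) in MEFs and 2.24 ± 2.28 CPM (SD, n = 3) in mESCs, a log2 fold change of -1.61 (SE 0.61) that missed the threshold (adjusted p = 0.0509, edgeR's quasi-likelihood test). Relative to the MEF mean, Lif stood at 70.3% in mESC a, 13.1% in mESC b and 13.6% in mESC c. Without mESC a, the log2 fold change was -2.89 and Lif was called (adjusted p = 0.00226). The call thus turned on 1 mESC library, and over 15 alternative settings the log2 fold change ran from -2.89 to -1.24 and the adjusted p from 0.00226 to 0.223, with Lif called in 4.

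Fibroblast markers were low in mESC a as in the other mESC libraries. Their summed level was 205 CPM in mESC a, 180 CPM in mESC b and 177 CPM in mESC c. The 12 fibroblast markers stood at a median of 0.944% of their MEF mean in mESC a, 0.651% in mESC b and 0.954% in mESC c, and the highest single value of any of them in any mESC library was 19.4% (Lum). The part of fibroblast RNA in the Lif level of mESC a was not tested.

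Il6 encodes interleukin-6, which signals through its own receptor and gp130, and lies on chromosome 5 (30013114-30019981, plus strand). It had 90, 38, 26 and 26 counts in MEF a to d (8.63, 4.55, 3.96 and 4.13 CPM) and 0, 2 and 0 counts in mESC a to c. MEF a was the highest of the MEF libraries, and every mESC library was at or under 3 counts. The pooled counts of 180 in MEFs and 2 in mESCs gave a ratio of 75.4, with a 95% interval of 20.6 to 628 that covers counting error only. Il6 was called lower in mESCs (adjusted p = 0.000227, edgeR's quasi-likelihood test), and this call held in all 15 alternative settings.

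Il11 encodes interleukin-11, a gp130 cytokine made by stromal cells, and lies on chromosome 7 (4772373-4782859, minus strand). It was counted at 2.11, 1.08, 1.68 and 0.80 CPM in MEFs (22, 9, 11 and 5 counts) and at 0.76, 1.36 and 0.71 CPM in mESCs (7, 12 and 6 counts). The cell types overlapped, and with a log2 fold change of -0.59 (SE 0.59, adjusted p = 0.444, edgeR) no difference was detectable at this depth. Of the 50-base stretches of its transcripts, 3.13% were shared with other genes, most often Vmn1r84.

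**Figure D2:**
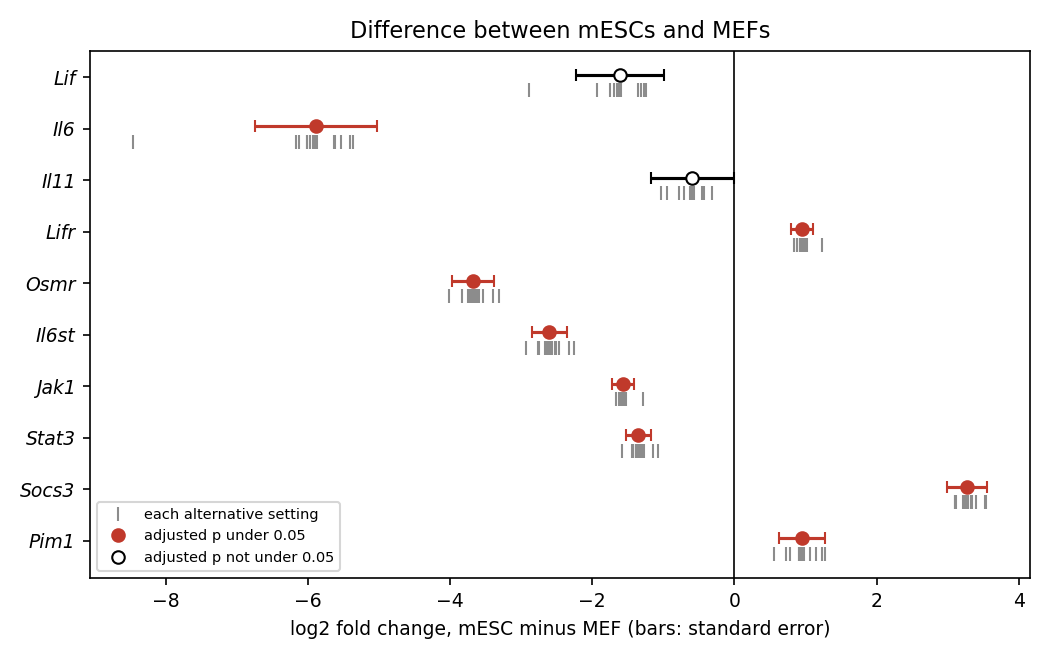
Log2 fold change of mESCs over MEFs for the 10 genes, with the standard error as bars and the value under each alternative setting as grey ticks below. Filled points passed the adjusted threshold. The ticks of Lif spread from -2.89 to -1.24 and those of Socs3 only from 3.10 to 3.54; no gene's ticks crossed 0. The value of Il6 rests on 2 counts in mESCs and depends on the prior count.

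The receptor chains went in opposite directions. Lifr, the chain that binds LIF, was higher in mESCs, whereas Il6st, the shared chain gp130, and Osmr, the chain that together with gp130 binds oncostatin M, were lower. Lifr (chromosome 15, 7090614-7197489, plus strand) was counted at 42.3, 53.1, 48.9 and 50.3 CPM in MEFs and at 87.7, 92.7 and 101.7 CPM in mESCs. Every mESC library was above every MEF library, and the mean rose from 48.6 ± 4.57 CPM (SD, n = 4) to 94.0 ± 7.10 CPM (SD, n = 3), a log2 fold change of 0.95 (SE 0.15, adjusted p = 0.000398, edgeR's quasi-likelihood test). The difference is close to 2-fold, and it did not pass when tested against a fold change of 2 (adjusted p = 0.762; 4.35e-08 to 0.762 over 15 alternative settings, with Lifr called in the other 14).

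Osmr lies on the minus strand of the same chromosome, at 6813577-6874969. It was counted at 28.1, 53.9, 36.1 and 50.4 CPM in MEFs and at 3.03, 3.52 and 3.30 CPM in mESCs (28, 31 and 28 counts). The mESC libraries lay close together and far below the MEF libraries, at 7.20%, 8.36% and 7.84% of the MEF mean. Osmr thus fell from 42.1 ± 12.1 CPM (SD, n = 4) to 3.29 ± 0.244 CPM (SD, n = 3), 12.8-fold (log2 fold change -3.67, SE 0.30, adjusted p = 3.39e-06, edgeR), the largest fall of the 10 genes apart from Il6.

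Il6st lies on chromosome 13 (112464070-112510086, plus strand). It was counted at 219, 410, 277 and 375 CPM in MEFs and at 45.2, 49.7 and 63.4 CPM in mESCs. The highest mESC library was far below the lowest MEF library, while gp130 RNA was still well counted in each mESC library (417, 437 and 537 counts). The mean was 320 ± 88.0 CPM (SD, n = 4) in MEFs and 52.7 ± 9.46 CPM (SD, n = 3) in mESCs, 6.07-fold lower (log2 fold change -2.60, SE 0.24, adjusted p = 1.02e-05, edgeR).

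Ratios of counts within a library do not depend on how libraries are scaled, and they were used to set ligand and receptor side by side between the cell types. Per count of Lifr, MEF a to d held 0.156, 0.0948, 0.212 and 0.114 counts of Lif, and mESC a to c held 0.0556, 0.00980 and 0.00928. The means were 0.144 ± 0.0519 (SD, n = 4) and 0.0249 ± 0.0266 (SD, n = 3), and without mESC a the latter was 0.00954. Every MEF library thus had more Lif per Lifr than any mESC library, mESC a included. This follows from the levels given above, since Lif was higher in every MEF library and Lifr in every mESC library. It adds no further result on Lif, which was not called.

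Per count of Lifr, MEFs held 0.664, 1.02, 0.738 and 1.003 counts of Osmr (0.855 ± 0.181, SD, n = 4), and mESCs held 0.0346, 0.0380 and 0.0325 (0.0350 ± 0.00278, SD, n = 3). Turned around, Lifr counts per Osmr count were 1.21 ± 0.261 in MEFs (SD, n = 4) and 28.7 ± 2.24 in mESCs (SD, n = 3). Between the receptors that pair with gp130, counts in mESCs were almost all of Lifr, while in MEFs Lifr and Osmr were counted about equally. These are ratios of counts from 3' biased libraries and not of protein at the cell surface. Their separation between the cell types also follows from the levels of Osmr and Lifr given above.

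**Figure D3:**
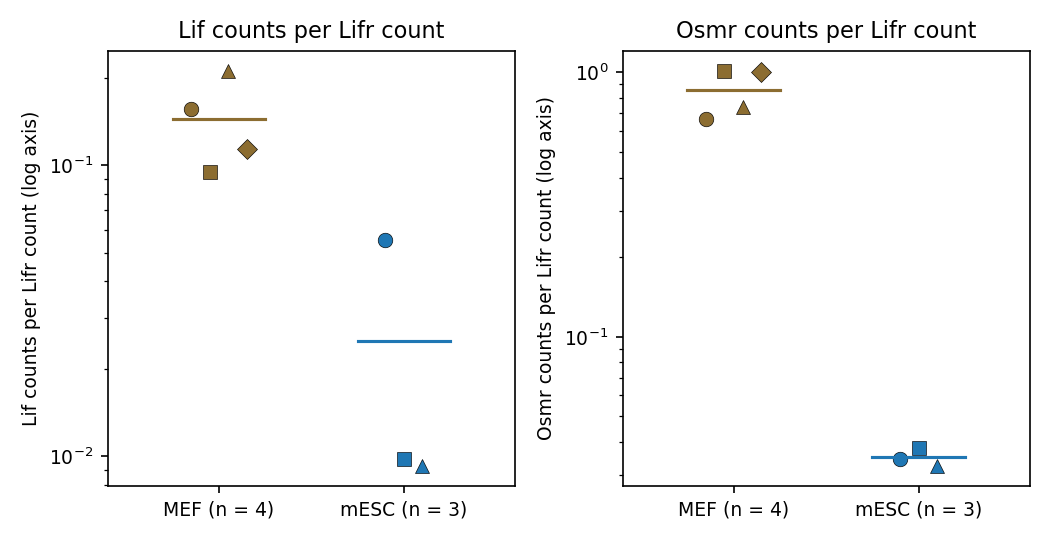
Counts of Lif (left) and of Osmr (right) per count of Lifr in each library, on log axes, with a line at the mean of each cell type. The mESC libraries lay below all MEF libraries in both ratios, which follows from the levels of the genes themselves. In the left panel mESC a (0.0556) stood apart from mESC b and c. In the right panel the 3 mESC libraries lay between 0.0325 and 0.0380.

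Jak1 and Stat3, which carry the signal from gp130 to the nucleus, were both lower in mESCs and both moderately so. Jak1 (chromosome 4, 101152367-101265282, minus strand), the Janus kinase that gp130 signalling depends on most, was counted at 119, 99.6, 114 and 113 CPM in MEFs and at 37.5, 39.5 and 35.5 CPM in mESCs. The libraries of each cell type lay close together and the cell types did not overlap. The mean fell from 111 ± 8.19 CPM (SD, n = 4) to 37.5 ± 2.01 CPM (SD, n = 3), 2.96-fold (log2 fold change -1.57, SE 0.15, adjusted p = 1.13e-05, edgeR).

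Stat3 (chromosome 11, 100885098-100939540, minus strand) was counted at 97.0, 137, 102 and 132 CPM in MEFs and at 46.9, 47.3 and 42.8 CPM in mESCs. Again no mESC library reached the lowest MEF library. The mean was 117 ± 20.5 CPM (SD, n = 4) in MEFs and 45.7 ± 2.47 CPM (SD, n = 3) in mESCs, 2.56-fold lower (adjusted p = 0.000107, edgeR's quasi-likelihood test). Stat5a overlaps 0.756% of the exon bases of Stat3 from the opposite strand, at the 3' end of Stat3. Since the strand setting of the counting is not given, an unknown part of the 3' biased reads could belong to either gene.

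Socs3 and Pim1 are direct targets of STAT3. Socs3, the feedback inhibitor that binds gp130 and the Janus kinases, was higher in mESCs, whereas Il6st, Jak1 and Stat3 were lower there. It lies on chromosome 11 (117966079-117970047, minus strand) and was counted at 11.5, 12.5, 20.6 and 27.0 CPM in MEFs (120, 104, 135 and 170 counts) and at 175, 184 and 156 CPM in mESCs (1617, 1621 and 1321 counts). The lowest mESC library was far above the highest MEF library. The mean rose from 17.9 ± 7.33 CPM (SD, n = 4) to 172 ± 14.5 CPM (SD, n = 3), 9.66-fold (log2 fold change 3.27, SE 0.28, adjusted p = 5.51e-06, edgeR), and Socs3 was the 1 gene among the 3 higher ones that still passed when tested against a fold change of 2.

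Pim1 encodes a serine/threonine kinase that promotes survival and growth, and lies on chromosome 17 (29490753-29496112, plus strand). It was counted at 164, 167, 195 and 102 CPM in MEFs and at 316, 447 and 146 CPM in mESCs. mESC a and b were above every MEF library, whereas mESC c lay within the range of the MEF libraries, at 93.1% of the MEF mean against 202% and 285%. The log2 fold change was 0.95 (SE 0.33, adjusted p = 0.0337, edgeR), with means of 157 ± 39.4 CPM (SD, n = 4) and 303 ± 151 CPM (SD, n = 3). This call rested on single libraries: it was lost without MEF a (adjusted p = 0.0578), MEF b (0.0600), MEF d (0.0791), mESC a (0.0884) or mESC b (0.191, with a log2 fold change of 0.56). Over all 15 alternative settings its adjusted p ran from 2.24e-06 to 0.682. The predicted gene Gm26885 overlaps 14.5% of the exon bases of Pim1 from the opposite strand. Of the 50-base stretches of Pim1, 8.78% are shared with other genes, most often Gm26885. The share of its 3' biased reads that this affects is not known.

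The STAT family binds DNA at a palindrome in which TTC and GAA stand 3 bases apart. The motif TTCNNNGAA (N is any base; as a palindrome it is found on both strands at once) was searched in RefSeq promoter windows of 300 bases, from 250 bases before to 50 after the start of a gene, on GRCm38.p6. All 10 genes had a window, and 1 of them, Socs3, held the motif, against 8.30% of all 32851 windows and 8.13% of the genes tested that have one. The stricter form TTCCNGGAA, which is contained in the first, was in none of the 10 and in 1.15% of all windows. Of the 75 further genes of the pathway described below, 54 had a window and 6 of these held TTCNNNGAA (Il31ra, Cish, Gab1, Bcl6, Icam1 and Fgl2). A match is a run of letters and not a measured binding site, and its absence from a window this short says nothing of sites elsewhere. The window of Socs3, the gene of the 10 that rose most, is shown with that of Cish, another feedback inhibitor of the SOCS family, which holds a pair of matches but was not called between the cell types. Motif letters are in capitals, and both windows are written 5′ to 3′ on the strand of the gene.
Socs3, chr11:117969317-117969616, minus strand: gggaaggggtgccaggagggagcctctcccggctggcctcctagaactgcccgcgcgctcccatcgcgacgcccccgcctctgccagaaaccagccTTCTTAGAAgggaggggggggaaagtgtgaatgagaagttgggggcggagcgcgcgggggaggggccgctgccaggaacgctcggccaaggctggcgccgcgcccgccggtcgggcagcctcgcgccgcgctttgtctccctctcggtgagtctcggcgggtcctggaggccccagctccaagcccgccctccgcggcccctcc
Cish, chr9:107296409-107296708, plus strand: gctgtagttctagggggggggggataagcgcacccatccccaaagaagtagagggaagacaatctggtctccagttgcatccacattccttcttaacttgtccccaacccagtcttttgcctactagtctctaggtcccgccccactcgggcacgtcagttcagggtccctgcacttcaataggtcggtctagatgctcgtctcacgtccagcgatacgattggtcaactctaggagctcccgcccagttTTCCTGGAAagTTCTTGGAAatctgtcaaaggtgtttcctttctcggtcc
In Socs3 the match begins 154 bases before the RefSeq start, and in Cish the matches lie at the RefSeq start and 11 bases after it. For both genes the RefSeq start lies inside the span that GENCODE gives, so these windows are not upstream of the GENCODE start.

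Among the MEF libraries, several of the 10 genes differed along the same split. Il6st (410 and 375 CPM), Osmr (53.9 and 50.4 CPM) and Stat3 (137 and 132 CPM) were all higher in MEF b and d than in MEF a and c, where the same genes stood at 219 and 277, 28.1 and 36.1, and 97.0 and 102 CPM. Lif stood the other way, at 5.03 and 5.73 CPM in MEF b and d and at 6.62 and 10.4 CPM in MEF a and c. Lifr was also higher in MEF b and d (53.1 and 50.3 against 42.3 and 48.9 CPM). Lower in MEF b and d were Il11 (1.08 and 0.80 against 2.11 and 1.68 CPM) and Jak1 (99.6 and 113.1 against 118.8 and 113.6 CPM). For Jak1, MEF d was just under MEF c. Il6, Socs3 and Pim1 did not follow the split. The blood cell markers summed to 8.39 and 8.75 CPM in MEF b and d and to 3.84 and 2.44 CPM in MEF a and c, and the Y-linked genes Ddx3y, Eif2s3y and Kdm5d to 90.6 and 88.4 against 2.11 and 0.610 CPM. Of the 4 macrophage markers only Lyz2 followed the split (32.7 and 35.8 against 6.62 and 8.69 CPM), while Csf1r was highest in MEF a (22.6 CPM). Of the 12 fibroblast markers, 10 were higher in MEF b and d, among them Dcn (467 and 522 against 121 and 149 CPM), Lum (116 and 140 against 48.3 and 48.0 CPM) and Col3a1 (3701 and 3589 against 1541 and 1948 CPM). Since this split was noticed after the values were seen, it is given with no test. The share of all genes tested that follow the same split was not counted. The genes and markers named here are thus not set against a background, and the part of these markers in the split was not tested. Among mESCs the Y-linked genes summed to 1.73 and 1.82 CPM in mESC a and b and to 35.9 CPM in mESC c. Of the mESC libraries, mESC c was the lowest for Pim1 but also for Il11, Jak1, Stat3 and Socs3. It was the highest for Lifr and Il6st. Without MEF b and d, or without MEF a and c, Il6st, Osmr and Stat3 were still called lower in mESCs and Lifr and Socs3 higher, whereas Pim1 was no longer called (adjusted p = 0.176 and 0.0584).

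The other genes of the pathway were taken as 7 lists by role, 75 genes in all, of which 66 were tested. Of these, 16 were higher in mESCs, 24 were lower and 26 were not called, and 45 did not overlap between the cell types, where 52.1% of all genes tested did not. Their median log2 fold change was -0.36. With 22.8% of all genes called higher and 25.0% lower, the lists are described by these counts alone.

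**Figure D4:**
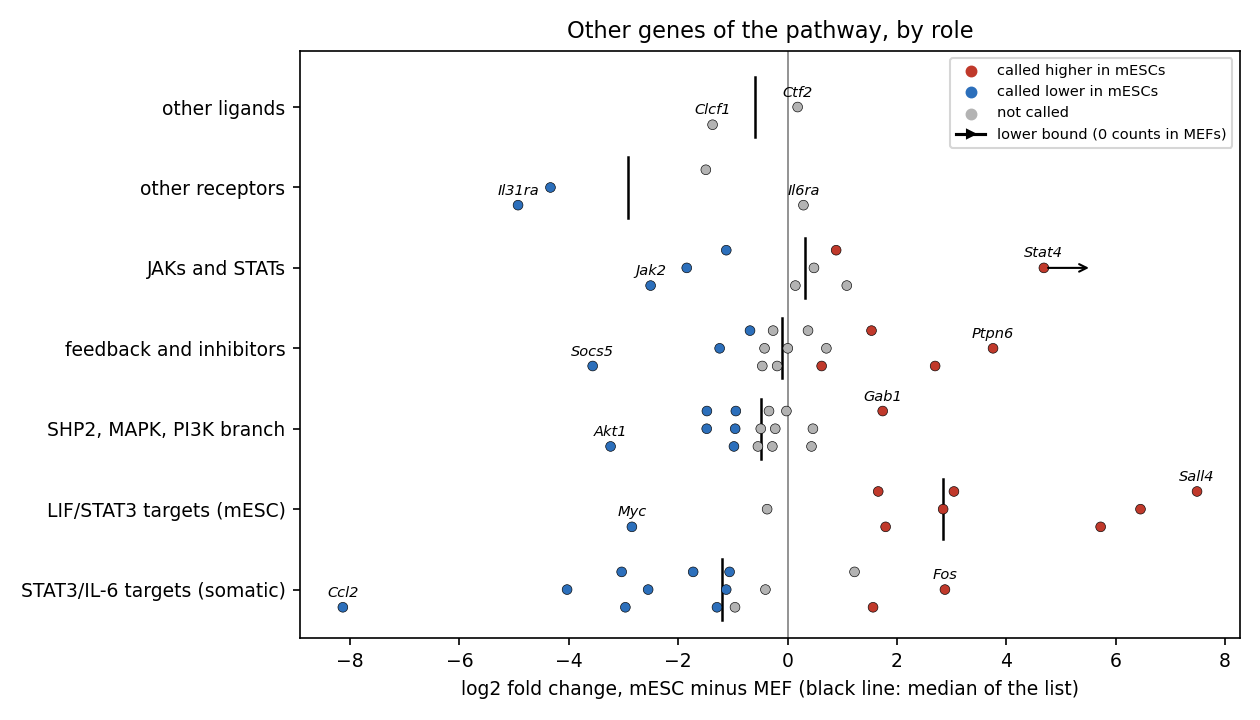
Log2 fold change of mESCs over MEFs (horizontal axis) for the 66 tested genes of the 7 lists, 1 row of points per list, with the list median as a black line and the outermost genes named. The list of LIF and STAT3 targets known in mESCs has its median at 2.85 and 7 of 9 points called higher. The list of somatic STAT3 and IL-6 targets has its median at -1.20 and 9 of 14 points called lower. These lists were defined by the cell types in which their genes are known, so their contrast is not an independent result. Of all genes tested, 22.8% were called higher and 25.0% lower. Stat4 had 0 counts in MEFs and is drawn at its lower bound, with an arrow.

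Few other ligands were counted. Of 8 listed, 2 were tested, and neither was called. With DESeq2, with the stricter filter, without MEF a or without mESC b, 1 ligand of the list was called lower in mESCs. Clcf1, a cytokine that signals through the CNTF receptor, was at 4.61 ± 2.08 CPM in MEFs (n = 4) and 1.78 ± 1.02 CPM in mESCs (n = 3; log2 fold change -1.37, adjusted p = 0.0545, edgeR), and Ctf2 was at means of 3.04 and 3.46 CPM. Osm, which encodes oncostatin M, Cntf, Ctf1, Il27, Ebi3 and Il31 had too few counts to be tested. Neither cell type thus held enough RNA of the ligand of Osmr for a test.

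The other receptors that were called were all lower in mESCs. Il11ra1, the receptor of interleukin-11, stood at 13.9 to 34.4 CPM in MEFs and at 0.682 to 1.73 CPM in mESCs, 20.2-fold lower (adjusted p = 4.00e-05, edgeR). Il31ra, the receptor chain that pairs with Osmr to bind interleukin-31, had 80 counts over the MEF libraries and 2 over the mESC libraries, a ratio of 33.5 with a 95% interval of 8.98 to 282 for counting error. Without MEF b, c or d it had too few counts to be tested, and the number of receptors called lower was then 1. Il6ra, the receptor of interleukin-6, was counted in both (4.38 ± 0.769 CPM in MEFs, n = 4, and 5.36 ± 1.07 CPM in mESCs, n = 3; log2 fold change 0.29, SE 0.35) and was not called, nor was Cntfr, and Il27ra was not tested.

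Of the other Janus kinases and STATs, 3 of 8 were lower in mESCs and 2 were higher. Jak2 fell from 16.7 ± 5.45 CPM (n = 4) to 2.94 ± 1.26 CPM (n = 3; log2 fold change -2.50, adjusted p = 0.000527, edgeR), and Stat5b fell from 16.0 ± 3.45 to 4.43 ± 2.29 CPM (log2 fold change -1.84, adjusted p = 0.00244). Stat5a fell with a log2 fold change of -1.12 (adjusted p = 0.0336), a call lost without MEF b (0.0950), mESC a (0.105) or mESC c (0.112). The direction of the kinases was not shared: Tyk2 was at 14.8 ± 1.84 CPM in mESCs and 8.02 ± 2.77 CPM in MEFs (log2 fold change 0.89, adjusted p = 0.0376), a call lost without MEF a, without MEF c or without any of the mESC libraries (adjusted p 0.0531 to 0.113). Stat4 had 0 counts in every MEF library and 52, 126 and 90 counts in mESC a to c, at least 25.8-fold higher in mESCs when the MEF level is set at the floor of 3 counts per library; Gm28177 overlaps 26.7% of its exon bases on the same strand. Jak3, Stat2 and Stat6 were not called.

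Among the feedback genes, SOCS members were called in both directions, and the called PIAS and PTPN members were higher in mESCs. Among the SOCS genes besides Socs3, Socs2, known as a brake on growth hormone signalling, rose from 42.1 ± 7.23 CPM (n = 4) to 274 ± 77.5 CPM (n = 3; log2 fold change 2.70, adjusted p = 2.84e-06, edgeR), whereas Socs5 fell from 36.5 ± 7.18 to 3.09 ± 2.55 CPM (log2 fold change -3.56, adjusted p = 0.000275). Socs1 and Socs6 were lower too, with smaller log2 fold changes of -1.24 (adjusted p = 0.0370) and -0.69 (0.0120). The call of Socs1 was lost without MEF b (adjusted p = 0.0530), MEF d (0.0964), mESC a (0.0725) or mESC b (0.0533), and both calls were lost when library size alone was used for scaling (0.0867 and 0.101).

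The phosphatase Ptpn6 (SHP1), best known from blood cells, rose from 1.10 ± 0.746 CPM (n = 4) to 14.8 ± 5.25 CPM (n = 3; log2 fold change 3.76, adjusted p = 0.000144, edgeR), and Pias2, a SUMO ligase of the PIAS family, rose from 21.2 ± 3.71 to 61.8 ± 9.11 CPM (log2 fold change 1.54, adjusted p = 9.74e-05). The blood cell markers, of which 4 of 6 had too few counts to be tested, summed to 1.25 to 2.95 CPM in mESCs and 2.44 to 8.75 CPM in MEFs, and the part of blood cells in the level of Ptpn6 was not tested. Ptpn2, a phosphatase of Janus kinases, was higher with a log2 fold change of 0.62 (adjusted p = 0.0201), a call lost without MEF b (0.0542), mESC a (0.0546) or mESC c (0.0957). Of this list 4 genes were higher, 3 lower and 7 not called (Cish, Socs4, Socs7, Pias1, Pias3, Pias4 and Ptpn1).

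On the branch that runs from gp130 through the phosphatase SHP2 to the MAP kinases and PI3K, 6 of 15 genes were lower in mESCs, 1 was higher and 8 were not called. Akt1, a kinase downstream of PI3K, fell from 108 ± 25.3 CPM (n = 4) to 11.5 ± 1.81 CPM (n = 3), 9.41-fold (adjusted p = 1.57e-06, edgeR). Ptpn11, which encodes SHP2, fell from 83.4 ± 15.9 to 30.0 ± 4.03 CPM (log2 fold change -1.47), Pik3r1, a regulatory subunit of PI3K, from 58.6 ± 12.1 to 21.1 ± 1.34 CPM, and the MAP kinase kinase Map2k2 from 92.9 ± 7.70 to 47.1 ± 7.63 CPM. The docking protein Gab1, on which SHP2 and PI3K assemble, went the other way and rose from 21.5 ± 3.03 to 71.8 ± 5.43 CPM (log2 fold change 1.74, adjusted p = 1.51e-05).

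The target genes known from mESCs were mostly higher in mESCs, which is the cell type they were listed for: 7 of 9 tested were higher, 1 was lower and 1 was not called. Sall4, a zinc finger factor of the pluripotency network, stood at 407 ± 113 CPM (n = 3) against 2.29 ± 0.413 CPM (n = 4), and Tfcp2l1, a transcription factor through which LIF sustains self-renewal, at 138 ± 20.0 against 1.66 ± 1.23 CPM. Pim3, the sister kinase of Pim1, rose from 21.5 ± 8.09 to 177 ± 20.1 CPM (log2 fold change 3.04, adjusted p = 7.09e-06, edgeR), and unlike those of Pim1 its cell types did not overlap. The homeobox gene Gbx2 was higher as well (12.6 ± 3.96 against 0.234 ± 0.0947 CPM), with 43.5% of its exon bases overlapped by the antisense gene D130058E05Rik, and so were Klf4, Klf5 and Bcl3. Myc was the exception and was lower in mESCs, at 5.29 ± 2.70 CPM against 38.0 ± 12.1 CPM in MEFs (log2 fold change -2.85, adjusted p = 0.000129). Junb was not called and Pramel7 was not tested.

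The targets known from fibroblasts and other somatic cells were mostly lower in mESCs, which is not the cell type they were listed for. Of 14 tested, 9 were lower, 2 were higher and 3 were not called. Ccl2, a chemokine that draws monocytes, fell from 173 ± 69.1 CPM (n = 4) to 0.601 ± 0.113 CPM (n = 3; log2 fold change -8.13, adjusted p = 1.96e-07, edgeR). Il4ra, the interleukin-4 receptor, fell from 13.9 ± 2.33 to 0.838 ± 0.696 CPM, and the C/EBP transcription factors of the acute phase response fell together, Cebpd from 36.3 ± 3.56 to 4.42 ± 0.920 CPM and Cebpb from 43.0 ± 6.30 to 5.50 ± 1.38 CPM. Antisense genes overlap 15.0% of the exon bases of Cebpd, 20.7% of those of Cebpb and 9.51% of those of Il4ra. Bcl2l1, Ccnd1, Vegfa, Hif1a and Timp1 were also lower. Other genes overlap 23.4% of the exon bases of Ccnd1 and 8.11% of those of Hif1a. Fos, an immediate early gene, went the other way from 57.6 ± 28.6 to 423 ± 65.5 CPM (log2 fold change 2.88, adjusted p = 5.80e-05), and so did Mcl1, a survival factor of the BCL2 family, from 124 ± 18.8 to 365 ± 27.1 CPM (log2 fold change 1.56, adjusted p = 1.31e-05). Bcl6, Icam1 and Fgl2 were not called, and Lcn2 was not tested.

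The genes whose pattern over the 7 libraries lay nearest to that of Lif, Lifr and Socs3 were found by the Euclidean distance between log2CPM values, each gene centred on its own mean. Nearest to Lif were Gucy1b1 (distance 0.789), Cdc42ep1 (0.833) and Rbak (0.843). Nearest to Lifr were Golga4 (0.215), Poglut1 (0.225) and Rsf1 (0.228), and nearest to Socs3 were Bex4 (0.533), C2cd5 (0.559) and Prorp (0.590). The likeness over 7 libraries of 2 cell types is a description of these libraries only.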

How the data were processed

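Gene counts from RNA-seq of MEFs (4 samples) and mESCs (3 samples) were used; ATAC-seq was not used here. The deposited values were whole-number counts per gene without normalization: the authors demultiplexed and trimmed 3' biased reads, mapped these with STAR to mm10, collapsed unique molecular identifiers with Je and counted reads on exons with featureCounts. The gene annotation and strandedness used in counting are not given in the sources used here, and 0 columns were left unused. Column names show the cell type but not which sample.

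Counts were filtered with filterByExpr, scaled by TMM and tested with edgeR 4.0.16 (quasi-likelihood F-test, R 4.3.3), with Benjamini-Hochberg adjustment over all genes tested and a threshold of 0.05. SE is the log2 fold change over the root of F, and log2CPM used a prior count of 2. The procedure was tested on simulated counts of 16580 genes, 200 of them changed by a log2 fold change of 2 in either direction. edgeR recovered 143 of the 200 with 6 false calls, and DESeq2 recovered 154 with 27. With no gene changed, edgeR called 0. A gene not called can thus still differ. Total counts of 6528643 to 11441278 per library set the counting error. Pairs of replicate libraries differed by more than counting error. Their chi-square over degrees of freedom ran from 15.6 (mESC a and mESC b) to 31.1 (MEF a and MEF d). Alternatives were DESeq2 1.42.0, its size factors in edgeR, library size alone, other filters, a test against a fold change of 2, leaving out each library, and, chosen after seeing the data, leaving out MEF b and d or MEF a and c. Some genes of the lists are not reported here and were left out of the lists' counts. Members and lists were chosen with earlier results of these data known. Named genes were all members, up to 4 called genes per list and direction by fold change, and the 3 nearest genes of Lif, Lifr and Socs3. Sequences are from RefSeq.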

Additional observations from a re-analysis of the deposited data

Results flagged for a closer look

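In 5 of the 49 genes named above, 1 MEF library lay far from the rest of its group by Dixon's criterion for 4 samples, which chance meets in about 1 group in 20; groups of 3 mESC libraries were not examined. Il6 was at 8.63 CPM in MEF a and at 3.96 to 4.55 CPM in the others. Socs1 was at 39.9 CPM in MEF d, against 20.3 to 23.1 CPM. Pias2 was lowest in MEF d, at 15.7 CPM against 22.6 to 23.9 CPM. Golga4 was lowest in MEF a, at 68.4 CPM against 81.5 to 82.6 CPM. C2cd5 was at 5.88 CPM in MEF d, against 2.52 to 2.90 CPM. The causes were not tested.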

How the results depend on the processing

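Over the 49 named genes, 727 values under alternative settings were computed, of which 662 kept their direction and their side of the threshold, 55 were no longer called, 10 became called and 0 changed sign; for the 10 members these were 146, 133, 9, 4 and 0. Il6st, Il6, Stat3, Jak1, Socs3 and Osmr were called in all 15 alternatives. Lifr was lost only in the test against a fold change of 2, Pim1 was called in 7 of 15 alternatives, and Lif became called with DESeq2 (adjusted p = 0.0214), with a filter of 1 count (0.00565), with a stricter filter (0.0441) and without mESC a (0.00226). Il11 was not called in any of the 11 alternatives in which it was tested. Tested against a fold change of 2, 1 member was higher, 15 of the other pathway genes were lower, and 1714 and 2277 of all genes were higher and lower. Leaving out 1 library at a time gave 2 to 3 members higher and 5 to 6 lower, 14 to 17 other pathway genes higher and 21 to 26 lower, and 3234 to 3619 of all genes higher and 3792 to 3916 lower. The mean ratio of Lif to Lifr then ran from 0.122 to 0.161 in MEFs and from 0.00954 to 0.0327 in mESCs, and that of Osmr to Lifr from 0.802 to 0.919 and from 0.0335 to 0.0363. Leaving out MEF b and d, or MEF a and c, gave 2 members higher and 5 lower each time, and at least 1 of these ended the calls of Tyk2, Stat5a, Ptpn2, Socs1 and Socs6. TMM moved mESCs against MEFs by 0.28 on the log2 scale. With library size alone, all genes had a median log2 fold change of 0.32, and 5180 genes were higher and 3345 lower, against 3785 and 4153 with TMM; 3 members were still higher and 5 lower. Of the members, Il6 and Il11 were limited most by depth. No paired analysis was possible because the count columns could be matched to cell types but not to numbered samples. The causes of these changes were not tested.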
